A study of Mus musculus with 4 samples.

Results

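The genes of the NMDA and AMPA type glutamate receptor subunits were examined in cultures of mouse prefrontal cortex (PFC) kept with or without fibroblast growth factor 2 (FGF2). The members were 10 of the 55421 genes in the count files, chosen by name through their Ensembl identifiers: Grin1, Grin2a, Grin2b, Grin2c, Grin2d and Grin3a for the NMDA receptor, and Gria1, Gria2, Gria3 and Gria4 for the AMPA receptor. All 10 were found and all 10 passed the filter on low counts. The cultures came from the PFC of wild-type (WT) C57BL/6 mice at postnatal day 0 and were grown for 10 days. One group received 5 ng/mL FGF2 and the other received no FGF2. Each group had 2 libraries of total RNA, here called replicates 1 and 2, so the data comprise 4 libraries.

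The cultures were dissociated tissue that had not been sorted, so each library mixes the RNA of neurons and glia. In such bulk RNA, fewer cells of a type and less RNA per cell cannot be told apart. The methods of the study give biological replicates for some of its human samples and technical replicates for the others. Read literally, the others include the mouse cultures, on which there is no separate statement. The spread between the libraries of a group, and each p-value computed from it, may therefore leave out the variation between cultures. The counts on genes ranged from 9166432 to 10799886 per library, at which 3 counts correspond to 0.277 to 0.331 CPM (counts put on a common scale with TMM factors), a limit that covers counting error only.

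NMDA and AMPA receptors are glutamate-gated cation channels built from 4 subunits, and they carry most fast excitatory transmission in the cortex. An NMDA receptor needs the GluN1 subunit, encoded by Grin1, together with GluN2 or GluN3 subunits, and the GluN2 type sets how long the channel stays open. In the rodent forebrain the Grin2b product prevails around birth and the Grin2a product is added as synapses mature. AMPA receptors assemble from the products of Gria1 to Gria4, and the GluA2 subunit from Gria2 keeps calcium out when its transcript has been edited at a glutamine codon of the pore, the Q/R site.

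The pore-lining stretch holds the edited codon, and it is shown here for the 4 AMPA receptor genes whose balance is described below. Each stretch is 45 bases of coding sequence, 5′ to 3′, read from the mouse GENCODE M21 transcripts (mm10), with the codon of the Q/R site in capitals.
Gria1: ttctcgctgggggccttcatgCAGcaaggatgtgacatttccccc
Gria2: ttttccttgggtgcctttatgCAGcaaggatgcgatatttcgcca
Gria3: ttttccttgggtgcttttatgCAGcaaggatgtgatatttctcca
Gria4: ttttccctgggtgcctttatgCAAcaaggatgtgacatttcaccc
These lie at chr11:57243073-57243117 on the plus strand (Gria1, exon 11 of 16), chr3:80706890-80706934 on the minus strand (Gria2, exon 11 of 16), chrX:41610244-41610288 on the plus strand (Gria3, exon 11 of 16) and chr9:4464116-4464160 on the minus strand (Gria4, exon 12 of 17). All 4 genes carry a glutamine codon at the site, CAG in 3 of them and CAA in Gria4. Against Gria1, the stretch differs at 9 bases in Gria2, at 9 in Gria3 and at 6 in Gria4. Gene counts do not show whether a transcript was edited, so editing of the Gria2 codon was not measured here.

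To ask how FGF2 changed receptor gene expression, the libraries with FGF2 were compared with those without FGF2. With FGF2, the transcription levels of 6 of the 10 genes were lower, namely Grin1, Grin2a, Grin2b, Grin2d, Grin3a and Gria1. Gria4 alone among the 10 was higher, while Grin2c, Gria2 and Gria3 did not pass the test. Of the 17144 genes tested, 19.9% were lower and 20.7% were higher at the same threshold, an adjusted p-value below 0.05 in the quasi-likelihood test of edgeR. The 6 Grin genes had a median log2 fold change of -0.46, with 5 lower and 0 higher. Among the 4 Gria genes 1 was lower and 1 was higher, with a median of -0.0033, beside -0.00082 over all genes tested. Without overlap between the groups, 7 members were lower with FGF2 and 1 was higher, where 33.4% and 33.6% of the tested genes were so. Summed over the family, the Grin genes reached 1537 and 1513 CPM with FGF2 and 2394 and 2370 CPM without FGF2, and the Gria genes 837 and 869 CPM against 1185 and 1180 CPM.

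**Figure D1:**
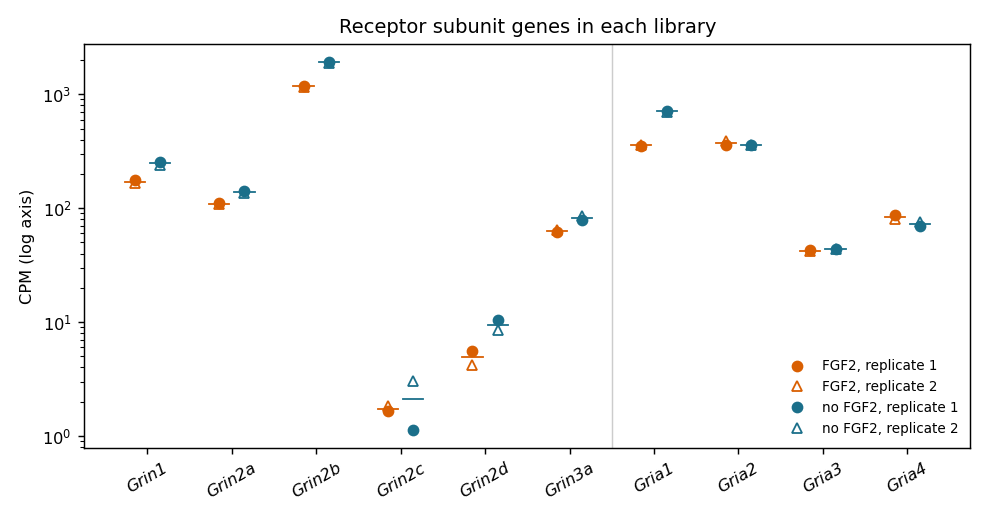
Level of each receptor subunit gene in CPM (log axis) in each of the 4 libraries, with FGF2 in orange and without FGF2 in blue; filled circles are replicate 1, open triangles replicate 2 and short lines the group means. Grin2b stands between 1168 and 1905 CPM and Grin2c between 1.14 and 3.05 CPM, and the colours separate most clearly in Grin2b, Grin2d and Gria1.

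Grin1 (ENSMUSG00000026959, chr2:25291181-25319187, minus strand) encodes the subunit that every NMDA receptor contains. It was measured at 176 and 165 CPM in replicates 1 and 2 with FGF2 and at 256 and 239 CPM without FGF2. Both libraries with FGF2 were below both without it, with means of 170 ± 7.31 and 247 ± 12.01 CPM (SD, n = 2 each). With FGF2 the log2 fold change was -0.54 ± 0.049 (SE), a 1.45-fold lower level (adjusted p = 7.81e-27, edgeR). Grin1 shares 1307 exonic bases with Grin1os on the opposite strand, which held 0 counts in every library. The strand setting of the counting is not given in the sources used here, so the level of Grin1 is uncertain.

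Grin2b (ENSMUSG00000030209, chr6:135713233-136173511, minus strand) encodes the GluN2B subunit that prevails before and shortly after birth. Its level was 1182 and 1168 CPM with FGF2 and 1905 and 1896 CPM without FGF2. The means of 1175 ± 10.4 and 1900 ± 6.07 CPM (SD, n = 2 each) were far apart relative to the spread of the replicates. The log2 fold change was -0.69 ± 0.031 (SE), or 1.62-fold lower with FGF2 (adjusted p = 1.74e-106, edgeR).

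Grin2a (ENSMUSG00000059003, chr16:9567898-9995560, minus strand) encodes GluN2A, which joins cortical NMDA receptors as synapses mature and shortens their currents. It was found at 110 and 109 CPM with FGF2 and at 143 and 137 CPM without FGF2. The groups did not overlap, with means of 110 ± 0.635 and 140 ± 4.02 CPM (SD, n = 2 each). Its log2 fold change of -0.35 ± 0.060 (SE, adjusted p = 5.71e-08, edgeR) was the estimate nearest to 0 among the 6 lower members. Grin2a shares a stretch of 2225 bases at 99.91% identity with the processed pseudogene Gm7328, which held 1 to 4 counts per library. Reads that map equally well to both were removed by the authors' mapping quality filter, so the Grin2a counts may be too low in every library and its level is uncertain.

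Grin2d (ENSMUSG00000002771, chr7:45831883-45878378, minus strand) encodes GluN2D, a slowly closing subunit found in the cortex mainly in interneurons. It was far scarcer, at 51 and 41 counts with FGF2 and 110 and 93 counts without FGF2, which were 5.62 and 4.17 CPM against 10.5 and 8.59 CPM. The libraries with FGF2 were again both below the others. Its log2 fold change was -0.96 ± 0.229 (SE), with an adjusted p of 0.000122 in edgeR and 0.0352 in DESeq2. Grin2d shares 643 exonic bases with Gm45441 on the opposite strand, which held 23 to 30 counts per library, and the strand setting of the counting is not given in the sources used here.

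Grin2c (ENSMUSG00000020734, chr11:115249169-115267243, minus strand) encodes GluN2C, best known from cerebellar granule cells. It had 15 and 18 counts with FGF2 and 12 and 33 counts without FGF2. The groups overlapped, since the libraries without FGF2 held both the lowest and the highest count. The log2 fold change of -0.27 ± 0.445 (SE) was smaller than its standard error and not past the threshold (adjusted p = 0.678, edgeR), so a difference was not detectable at this depth.

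Grin3a (ENSMUSG00000039579, chr4:49661611-49845744, minus strand) encodes GluN3A, a glycine-binding subunit of immature synapses that lowers calcium entry. It was measured at 61.9 and 65.0 CPM with FGF2 and at 78.9 and 86.2 CPM without FGF2. Both libraries with FGF2 were lower, with a log2 fold change of -0.38 ± 0.076 (SE) and an adjusted p of 3.91e-06 in edgeR. The other GluN3 subunit gene, Grin3b, had 2, 5, 3 and 3 counts over the 4 libraries and was too low to be tested.

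Gria1 (ENSMUSG00000020524, chr11:57011387-57330244, plus strand) encodes GluA1, the AMPA receptor subunit delivered to synapses during potentiation. It was measured at 353 and 357 CPM with FGF2 and at 715 and 700 CPM without FGF2. The groups were well separated, with means of 355 ± 2.74 and 708 ± 10.6 CPM (SD, n = 2 each). The log2 fold change was -0.99 ± 0.038 (SE), so the level was 1.99-fold lower with FGF2 (adjusted p = 5.44e-149, edgeR). This was the most negative estimate among the 10 members, close to that of Grin2d given its larger standard error. None of the members was past a log2 fold change of 1 in either direction, where 2.38% of the tested genes were called lower below -1 and 5.22% higher above 1.

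Gria2 (ENSMUSG00000033981, chr3:80681450-80802835, minus strand) encodes GluA2, the subunit that makes AMPA receptors impermeable to calcium. Its level was 355 and 390 CPM with FGF2 and 355 and 360 CPM without FGF2. Replicate 2 with FGF2 stood above the other 3 libraries, which lay within a few CPM of each other. The log2 fold change of 0.06 ± 0.041 (SE) was not past the threshold (adjusted p = 0.263, edgeR). With offsets for GC content and length in each library it was -0.12 (adjusted p = 0.00421), and without replicate 1 with FGF2 it was 0.12 (adjusted p = 0.0209), so no direction is given for Gria2.

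Gria3 (ENSMUSG00000001986, chrX:41400854-41678601, plus strand), the gene of GluA3, was found at 42.8 and 41.9 CPM with FGF2 and at 44.3 and 44.2 CPM without FGF2. The groups did not overlap, but the log2 fold change was only -0.06 ± 0.095 (SE) and did not pass the test (adjusted p = 0.637, edgeR).

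Gria4 (ENSMUSG00000025892, chr9:4417896-4796234, minus strand) encodes GluA4, which forms fast channels and in the cortex is found in fast-spiking interneurons and early in development. It was measured at 86.3 and 80.4 CPM with FGF2 and at 70.3 and 75.5 CPM without FGF2. Both libraries with FGF2 were above both without it, with a log2 fold change of 0.19 ± 0.074 (SE), a 1.14-fold higher level (adjusted p = 0.0255, edgeR). The call is weak. It was lost with upper quartile scaling (adjusted p = 0.0593), in DESeq2 (adjusted p = 0.237), without replicate 1 with FGF2 (adjusted p = 0.218) and without replicate 1 without FGF2 (adjusted p = 0.303), whereas the log2 fold change stayed between 0.14 and 0.24 when 1 library was left out.

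**Figure D2:**
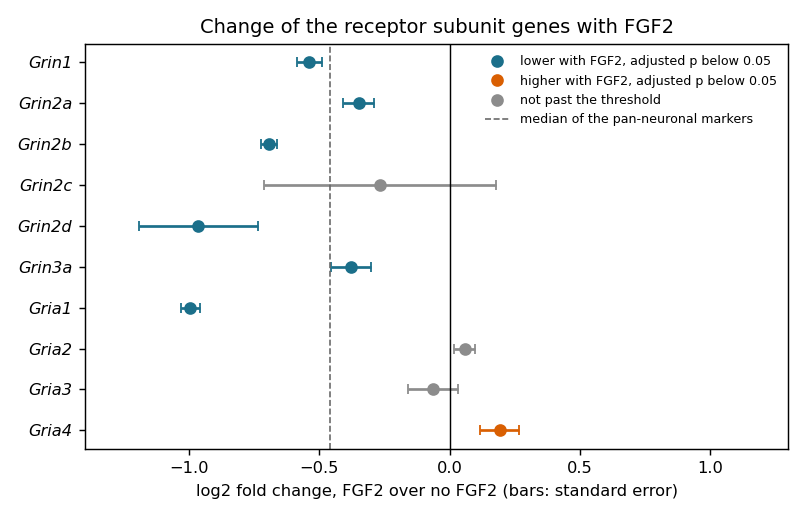
log2 fold change of each receptor subunit gene, FGF2 over no FGF2, with bars for the standard error of the edgeR estimate (2 libraries per group). Blue points are lower and the orange point higher at an adjusted p-value below 0.05, grey points did not pass it, and the dashed line is the median of the pan-neuronal markers at -0.46. Gria1 and Grin2d lie near -1, while Gria2, Gria3 and Gria4 lie near or above 0.

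Levels can be compared between genes only per length, here as CPM per kb of merged exon. Per length, Gria1 stood first in both groups, at 58.8 ± 0.453 with FGF2 and 117 ± 1.76 without FGF2 (SD, n = 2 each). Grin2b was second, at 47.3 CPM per kb with FGF2 and 76.5 CPM per kb without FGF2. The next places changed hands. Gria2 led Grin1 with FGF2, at 24.0 against 17.6 CPM per kb, and followed it without FGF2, at 23.0 against 25.5 CPM per kb. Below these came Gria4 at 13.2 and 11.6 CPM per kb with and without FGF2, then Grin2a at 6.11 and 7.79, Grin3a at 5.17 and 6.72, and Gria3 at 4.29 and 4.49 CPM per kb. Grin2d and Grin2c closed the order at 0.735 and 0.346 CPM per kb with FGF2 and at 1.43 and 0.416 CPM per kb without FGF2. No neighbours in either order overlapped between the libraries. With the length of the longest transcript in place of the merged exons, however, Grin3a stood above Grin2a in both groups, and with FGF2 Gria3 also stood above Grin2a and Grin1 above Gria2, so the order of these pairs depends on the transcript model.

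Next, the balance between Grin2b and Grin2a was examined, because these are the alternative GluN2 subunits of the cortical NMDA receptor. The log2 ratio of Grin2b to Grin2a, per exonic length, was 2.95 and 2.95 in the libraries with FGF2 and 3.27 and 3.32 in those without FGF2. Both transcripts fell with FGF2, and Grin2b fell further. The ratio was therefore lower with FGF2 by a log2 difference of -0.34, between means of 2.95 ± 0.0044 and 3.30 ± 0.037 (SD, n = 2 each). The groups did not overlap, but 2 libraries against 2 cannot give less than p = 0.333 in the two-sided exact permutation test, which is the value found. In raw counts Grin2a made up 8.52% of the reads on both genes (95% CI 8.02% to 9.04%, exact binomial) and 8.55% (8.07% to 9.06%) with FGF2. Without FGF2 it made up 6.96% (6.63% to 7.31%) and 6.73% (6.41% to 7.07%). These intervals cover counting error only, and the pseudogene copy of Grin2a bears on the share itself.

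Grin2b remained the main Grin2 transcript in every library, at 86.7% and 86.9% of the summed Grin2 level per length with FGF2 and 88.7% and 88.9% without FGF2. Grin2a held 11.2% and 11.3% with FGF2 and 9.20% and 8.89% without FGF2. Grin2d held between 1.16% and 1.82% with overlapping groups, and Grin2c between 0.262% and 0.705%, also overlapping. The log2 ratio of Grin1 to the summed Grin2 genes was -1.60 and -1.67 with FGF2 and -1.71 and -1.80 without FGF2, a difference of 0.12 (exact permutation p = 0.333, the smallest possible), which was 0.078 without replicate 2 without FGF2. The level of this ratio depends on the transcript model. Mean Grin1 was 17.6 and 25.5 CPM per kb of merged exon with and without FGF2. Per kb of the longest transcript it was 39.8 and 57.9, whereas Grin2b was 48.8 and 79.0. The difference stayed at 0.12 with longest transcripts. The log2 ratio of Grin3a to Grin1 overlapped between the groups, at -1.84 and -1.69 against -2.04 and -1.81.

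The AMPA receptor transcripts shifted more. The log2 ratio of Gria4 to Gria1, per exonic length, was -2.09 and -2.21 with FGF2 and -3.41 and -3.27 without FGF2. The libraries with FGF2 were both higher, by a log2 difference of 1.19 or 2.28-fold, between means of -2.15 ± 0.083 and -3.34 ± 0.093 (SD, n = 2 each, exact permutation p = 0.333, the smallest possible). Most of this difference was the lower Gria1 level, since Gria4 itself changed by 0.19 on the log2 scale. In raw counts Gria4 made up 19.6% (95% CI 18.4% to 20.9%, exact binomial) and 18.4% (17.2% to 19.6%) of the reads on Gria1 and Gria4 with FGF2. Without FGF2 it made up 8.95% (8.34% to 9.59%) and 9.73% (9.10% to 10.4%).

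Among all 4 AMPA subunit transcripts, per exonic length, Gria2 held 23.0% and 24.8% with FGF2 and 14.6% and 14.9% without FGF2. Its share was higher by 9.15 percentage points, between means of 23.9% ± 1.26 and 14.7% ± 0.236 (SD, n = 2 each, exact permutation p = 0.333). Gria1 held 58.9% and 58.4% with FGF2 and 75.5% and 74.5% without FGF2. Gria4 rose from 7.11% and 7.70% without FGF2 to 13.8% and 12.6% with FGF2, and Gria3 from 2.86% and 2.89% to 4.37% and 4.20%. All 4 shares were separated between the groups while the Gria2 level itself was not. The shares themselves depend on the length used. In raw counts Gria2 made up 42.4% and 44.8% with FGF2 and 30.0% and 30.5% without FGF2. Gria1 then made up 42.2% and 41.1% with FGF2 and 60.4% and 59.3% without FGF2. The share of Gria2 among the transcripts does not give the share of receptors that contain GluA2. Over the 26 ratios and shares computed, those with separated groups had an adjusted p of 0.433.

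**Figure D3:**
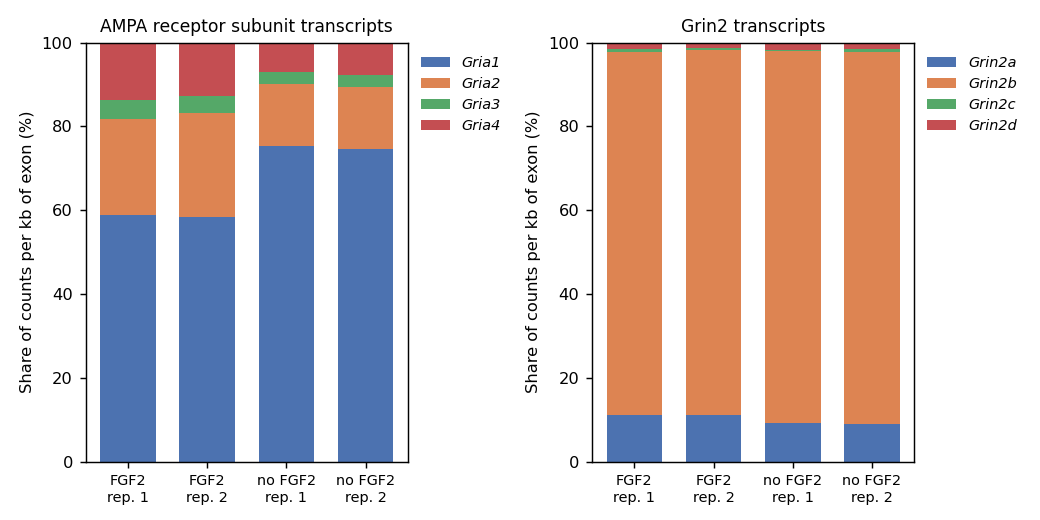
Share of each gene in the summed level per kb of exon (%), in each library, for the AMPA receptor subunits (left) and the Grin2 genes (right). Gria1 takes 58.4% to 58.9% with FGF2 and 74.5% to 75.5% without FGF2, whereas Grin2b keeps 86.7% to 88.9% in all 4 libraries.

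Marker genes of the cell types in the cultures moved as well, beside 19.9% of all tested genes lower and 20.7% higher. The 13 pan-neuronal markers, led by Map2, summed to 3941 and 4059 CPM with FGF2 and to 5695 and 5676 CPM without FGF2, with 11 lower, 1 higher and a median log2 fold change of -0.46. Of 11 excitatory neuron (EN) markers 5 were lower and 0 higher (median -0.34), and their sums were 923 and 895 CPM against 1117 and 1143 CPM. Of 13 inhibitory neuron (IN) markers 12 were lower and 0 higher (median -0.72), with sums of 792 and 790 CPM against 1379 and 1421 CPM. Thus EN and IN transcripts were present in all libraries, and no defining neuronal marker was at 0.

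The glial markers went the other way. Of 10 astrocyte markers 8 were higher and 1 lower with FGF2, and their sums, led by Gfap, were 12753 and 12628 CPM with FGF2 and 7793 and 7742 CPM without FGF2. All 6 oligodendrocyte precursor markers were higher, at 880 and 891 CPM against 372 and 373 CPM. The 5 tested of 6 mature oligodendrocyte markers were all higher, at 1246 and 1260 CPM against 239 and 240 CPM. Of 9 microglia markers 5 were tested and 3 were higher, at 19.2 and 21.8 CPM against 9.99 and 11.4 CPM in sum. Meningeal fibroblast and mural markers summed to 69.5 and 65.5 CPM against 56.7 and 56.8 CPM, with 2 higher and 3 lower of 7 tested. Endothelial markers reached at most 9.92 CPM in sum, with Cldn5 at 0 in every library. The part of these markers in the receptor gene results was not tested.

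To set the receptor genes beside the neuronal transcripts of the same library, each level was expressed relative to the mean log2 level of the pan-neuronal markers. The median over the 10 members was -0.53 and -0.56 with FGF2 and -0.86 and -0.78 without FGF2 on this log2 scale, a difference of 0.28 (exact permutation p = 0.333, the smallest possible). Different genes stood at the middle in the groups, so this is not the change of any member, and the median of the 10 members' own differences was 0.079, with 4 below 0 and 6 above 0. Relative to these markers Gria1 was lower with FGF2 by a log2 difference of -0.55, Grin2d by -0.52, Grin2b by -0.25 and Grin1 by -0.095, each without overlap between the groups. On the same scale Gria4 was higher by 0.64, Gria2 by 0.50, Gria3 by 0.38 and Grin2a by 0.094, also without overlap. In CPM 33.4% of all tested genes were lower and 33.6% higher without overlap, and the share on this scale was not computed. Grin3a and Grin2c overlapped, with differences of 0.065 and 0.34. Grin2a was thus lower in CPM and higher relative to the mean of the neuronal markers, so its direction depends on the reference. The markers themselves had log2 fold changes from -1.10 to 0.38. The libraries also hold glial RNA, so these values do not give levels within neurons. Which cells the receptor transcripts came from was not tested.

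The genes that serve these receptors were then examined in a list of 39 genes, of which 38 were tested. With FGF2 23 were lower and 3 were higher, and 12 did not pass the test, with a median log2 fold change of -0.49. Of all tested genes 19.9% were lower and 20.7% were higher. The list was written with earlier results of these data known, so its counts are a description. None of the 38 exceeded a log2 change of 1 in either direction. Of all tested genes 2.38% were called lower below -1 and 5.22% higher above 1. Among 12 auxiliary subunits of AMPA receptors 8 were lower and 0 higher (median -0.54). Among 10 scaffold and trafficking genes 8 were lower and 0 higher (median -0.49). Of the 4 AMPA receptor assembly factors 1 was lower and 1 higher, of the 5 NMDA receptor auxiliary and modulator genes 2 were lower and 1 higher, and of the 3 neuronal pentraxins 1 was lower and 0 higher.

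By profile over the 4 libraries, the gene of this list nearest to Grin2a was Dlg4, which encodes the postsynaptic scaffold PSD-95, at a Euclidean distance of 0.0167 between centred log2 CPM, followed by Dlg2 at 0.116. Dlg4 was measured at 352 and 345 CPM with FGF2 and 450 and 432 CPM without FGF2, a log2 fold change of -0.34 ± 0.040 (SE). Nearest to Grin2b were Adarb2, a member of the RNA editing enzyme family (0.0371, log2 fold change -0.71), and Epb41l1, which encodes a cytoskeletal linker of GluA1 (0.0716, log2 fold change -0.63). The nearest profiles are a description over 4 libraries that fall into 2 groups, so they mostly reflect a similar fold change.

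Gria1 had no close neighbour in the list. Its nearest genes were Grip2, a scaffold that binds AMPA receptor tails, at a distance of 0.186, and Cacng8, an AMPA receptor auxiliary subunit, at 0.217. Grip2 had 29.1 and 25.7 CPM with FGF2 against 52.0 and 48.7 CPM, and Cacng8 had 20.5 and 20.2 CPM against 39.4 and 33.5 CPM. Their log2 fold changes were -0.88 ± 0.10 and -0.84 ± 0.12 (SE), with adjusted p-values of 1.28e-16 and 1.13e-11 in edgeR. Nearest to Gria4 was Cpt1c, an assembly factor of AMPA receptors (0.107). Its log2 fold change was 0.20 ± 0.067 (SE, adjusted p = 0.00797, edgeR), a call that was lost in DESeq2 (adjusted p = 0.129) and when either replicate without FGF2 or replicate 1 with FGF2 was left out. Cacng7 followed at 0.148, with a log2 fold change of 0.09 ± 0.060 (SE) that was not past the threshold (adjusted p = 0.212, edgeR).

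Among the listed genes of the RNA editing family, Adarb1 bears on the Q/R codon shown above, since its product, ADAR2, edits it in Gria2. Adarb1 was measured at 86.3 and 80.0 CPM with FGF2 and at 127 and 120 CPM without FGF2. Both libraries with FGF2 were lower, with a log2 fold change of -0.57 ± 0.066 (SE) and an adjusted p of 5.16e-17 in edgeR. Adar was at 184 and 176 CPM against 200 and 209 CPM, with a log2 fold change of -0.19 (adjusted p = 0.000702, edgeR, and 0.0624 without replicate 2 without FGF2). Adarb2, a member of the same gene family, had a log2 fold change of -0.71, and no role at this codon is assumed for it. No change in editing is inferred from these levels, since editing was not measured.

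Rest, a repressor that keeps neuronal genes silent outside neurons and has binding sites in receptor genes, went the other way. It was found at 53.6 and 51.0 CPM with FGF2 and at 34.2 and 31.6 CPM without FGF2. Both libraries with FGF2 were higher, with a log2 fold change of 0.67 ± 0.097 (SE) and an adjusted p of 5.24e-11 in edgeR. Fyn, a kinase that phosphorylates GluN2 subunits, was at 377 and 376 CPM with FGF2 and at 239 and 247 CPM without FGF2, a log2 fold change of 0.63 ± 0.043 (SE, adjusted p = 2.71e-47, edgeR). Both genes are also transcribed in glia, whose markers were higher with FGF2, and the part of glial RNA in these values was not tested.

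**Figure D4:**
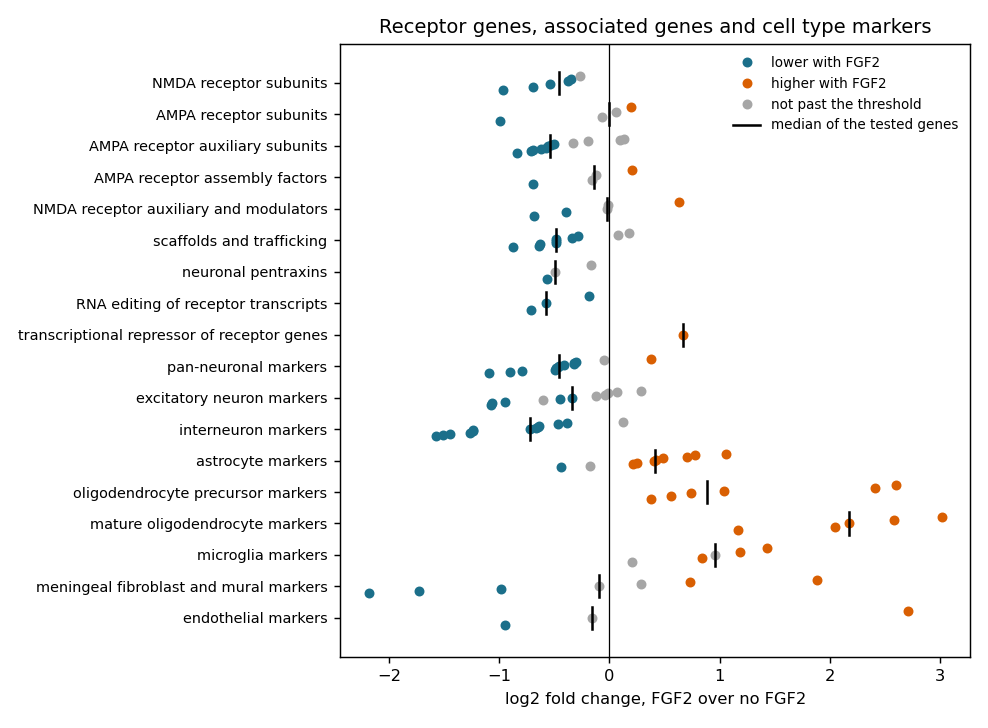
log2 fold change (FGF2 over no FGF2) of each tested gene in the receptor families, the receptor-associated groups and the cell type marker lists. Each point is 1 gene, coloured by the edgeR call (blue lower, orange higher, grey not past the threshold), and black bars are list medians. The NMDA receptor subunits spread from -0.96 to -0.27 (median -0.46) and the pan-neuronal markers from -1.10 to 0.38 (median -0.46). The AMPA receptor subunits spread from -0.99 to 0.19, and the mature oligodendrocyte markers centre at 2.18.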

How the data were processed

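Total RNA was sequenced as paired ends in 4 libraries. The authors mapped clean reads to mm10 with HISAT2 2.1.0, kept alignments with a mapping quality of at least 20 using Samtools, and deposited raw HTSeq 0.11.2 counts per gene for each library. The annotation release and strand setting are not given in the sources used here. The 5 tallies that name no gene (43.2% to 45.9% of read pairs in no feature, 1.47% to 1.76% ambiguous) were left out. Of 55421 genes, 55240 matched GENCODE M21 by identifier, which gave names, mm10 positions and lengths.

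The counts were tested with the quasi-likelihood test of edgeR 4.0.16 (R 4.3.3; TMM factors 0.992 to 1.01, robust, filterByExpr by group, Benjamini-Hochberg adjustment over 17144 genes, threshold 0.05). Ratios between single genes were log2 of (count + 0.5) per kb of merged exon. Shares per length and the ratio of Grin1 to the summed Grin2 genes used counts per kb with nothing added. Levels relative to the neuronal markers used log2 CPM with a prior count of 0.5 and no length. These values were compared with exact permutation tests (scipy 1.17.1). Replicates of a group differed beyond sampling noise (chi-square per degree of freedom 2.28 with FGF2 and 1.76 without) and were kept apart. Longest transcripts were aligned with BLAST 2.17.0, and 4 of the 10 members had at least 100 bases at 95% identity or more in another gene: Grin2a as given, and Grin1, Grin2b and Grin2d with an overlapping gene on the opposite strand.

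The members and lists were chosen with earlier results of these data known. The text names every member, Grin3b, Adarb1 and Rest, listed genes past a log2 change of 1, and the 2 nearest profiles of Grin2a, Grin2b, Gria1 and Gria4. Fyn and Adar were named after their values were seen. The alternatives tried were upper quartile, RLE or total count scaling, no filter or at least 10 counts in every library, DESeq2 1.42.0, limma-voom (limma 3.58.1), a replicate block, GC and length offsets (lowess span 0.3) without and with it, each library left out, a threshold of 0.01, and for ratios a prior count of 5, longest-transcript or no length, and other reference markers. Pore sequences of the Grin genes are not reported here.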

Additional observations from a re-analysis of the deposited data

How the results depend on the processing

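The 6 lower members remained lower and past the threshold under every alternative run, and the members called lower numbered 6 to 7. The single higher call, Gria4, was the least stable, and 0 members were called higher with upper quartile scaling, with DESeq2, at a threshold of 0.01 and, over the fits without 1 library, between 0 and 1. The log2 fold change of Gria2 turned to -0.12 with GC and length offsets, to -0.12 with those offsets and the replicate block, and, over the fits without 1 library, ranged from -0.014 (without replicate 2 with FGF2) to 0.12 (without replicate 1 with FGF2). That of Grin2c ranged from -0.81 to 0.60 over these fits, the latter without replicate 2 without FGF2, the library with 33 of its counts. Over all genes DESeq2 called 3999 in place of 6949, with 1931 lower and 2068 higher. The cause of these changes was not tested. The ratios kept their direction: Grin1 to the summed Grin2 genes between 0.078 and 0.17, Grin2b to Grin2a between -0.37 and -0.32, Gria4 to Gria1 between 1.12 and 1.25, and the Gria2 share between 8.26 and 13.4 percentage points, the last without length correction.

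Libraries with the same number did not deviate together (correlation 0.00488 over 12670 genes), and the labels do not say what the number marks. With the replicate block 7 members, 26 receptor-associated genes and 6814 of all genes passed the threshold, and no member's call changed. With 2 libraries per group, exact tests cannot go below p = 0.333, and at 12 to 33 counts Grin2c allows no statement on direction.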
